A study of Mus musculus with 24 samples.

Results

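The FGF and ERK feedback genes are 10 genes whose transcription follows signalling through the extracellular signal-regulated kinase (ERK) pathway: the Sprouty genes Spry1, Spry2 and Spry4, the Sprouty-related genes Spred1 and Spred2, the dual-specificity phosphatase genes Dusp4 and Dusp6, and the ETS transcription factor genes Etv1, Etv4 and Etv5. They were taken by symbol from the 26411 genes of the count table, where each symbol had a single row, and all 10 passed the filter on low counts in every fit. RNA was sequenced from neural stem and progenitor cells (NSPCs) of the dorsal telencephalon of C57BL/6 mouse embryos at E12.5 (mid-gestation). The cells were Kat6a+/+ (wildtype), Kat6a+/– or Kat6a–/–, where the mutant allele is a germline deletion of exons of Kat6a, a histone acetyltransferase gene, so that every cell of a mutant culture carried it. Each genotype was cultured for 3 days either in proliferating medium, which held FGF2 at 10 ng/ml, EGF at 20 ng/ml and heparin, or in differentiating medium, which held 1% fetal bovine serum, listed neither growth factor, and was used on dishes coated with poly-L-ornithine and laminin. That gave 6 groups of 4 libraries, each library from the cells of 1 embryo. Some embryos and litters gave libraries to both media, and the RNA extraction kit also changed with the medium, so that medium, coating, serum and kit cannot be told apart.

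The 24 libraries held between 7826660 and 40838203 counts, and the lowest count of any feedback gene in any library was 63, for Etv4. Values are CPM, the count of a gene relative to its library total, scaled by TMM, a normalisation on the bulk of the genes. Levels of different genes are compared only as RPKM, which is CPM per kilobase of the gene length in the count table. The neural progenitor markers Sox2, Nes, Vim and Fabp7 were present in every library, whereas Emx1, which defines the dorsal telencephalon, was at 0 in 21 of 24 libraries and at most 0.255 CPM in the other 3. Kat6a had 389 ± 16.3 CPM (SD, n = 4) in proliferating Kat6a+/+, 348 ± 16.5 in Kat6a+/– and 349 ± 24.04 in Kat6a–/– cells, and 264 ± 24.2, 232 ± 17.2 and 189 ± 42.5 CPM in the same order in differentiating cells. The gene-level count also covers exons outside the deletion and overlaps an exon of the opposite-strand gene Ap3m2, so it does not check the genotype labels. In either medium, Y-linked genes summed to over 100 CPM in 3 of 4 libraries from Kat6a+/+ embryos, 1 of 4 from Kat6a+/– and 1 of 4 from Kat6a–/– embryos, and to at most 1.63 CPM in the others. Of 6 embryo labels that occur in both media, 5 gave libraries alike in this respect. The remaining label belongs to replicate 1 of Kat6a+/+ in both media, with 0.0490 CPM in the proliferating and 211 CPM in the differentiating library, so these libraries cannot both be from the embryo their label names. Replicate 2 of Kat6a+/+ is labelled embryo 7 of litter 4346 in proliferating and embryo 7 of litter 4364 in differentiating medium. Its libraries had 220 and 0.109 Y-linked CPM in that order. Labels were used as given, and whether any were exchanged was not tested. Member calls that rest on the libraries of replicate 1 are also given without them. Levels, shares, marker ranges, pathway lists and correlations are given only with them. Fewer cells of a type and less RNA per cell cannot be told apart in these bulk libraries.

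In the FGF and EGF pathways a ligand binds a receptor tyrosine kinase, adaptors load RAS with GTP, and RAF, MEK and ERK are phosphorylated in turn. Active ERK relieves repression by the HMG-box protein Capicua and activates ETS factors, which switches on a set of immediate and delayed genes. Several of these genes limit the signal that induced them. Sprouty and SPRED proteins act at the level of RAS and RAF, SPRED proteins by bringing the RAS-GTPase activating protein neurofibromin to the membrane. DUSP6 dephosphorylates ERK in the cytoplasm and DUSP4 dephosphorylates MAP kinases in the nucleus. ETV1, ETV4 and ETV5 form the PEA3 subfamily of ETS factors, which carry FGF responses into gene expression. FGF2 and EGF are the mitogens that keep cortical progenitors dividing in culture. All members lie on autosomes. In GRCm39 they include Dusp6 (Entrez 67603) at 99086564 to 99103361 of chromosome 10, plus strand, Spry2 (Entrez 24064) at 106128766 to 106136446 of chromosome 14, minus strand, Spred1 (Entrez 114715) at 116951524 to 117018277 of chromosome 2, plus strand, and Etv1 (Entrez 14009) at 38828851 to 38920483 of chromosome 12, plus strand. Exons of opposite-strand noncoding transcripts overlap exons of Spry1, Spry2, Dusp6, Etv4 and Etv5. The library kit keeps strand, but the strand setting of the counting was not given in the sources used here, so reads of these pairs may be mixed.

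Promoter windows from RefSeq (build GRCm38.p6, 250 bases before to 50 bases after the start) were present for 7 of the 10 members and gave 9 windows. Dusp4, Etv4 and Spry4 had none in the table. Both strands were searched for the Capicua octamers TGAATGAA, TGAATGGA, TCAATGAA and TCAATGGA, the ETS site CCGGAA, the AP-1 site TGACTCA and the E-box CACGTG. The ETS site is the ETS core GGAA with a CC flank. The Capicua search first held only TGAATGAA (in 1.3% of all 32851 promoter windows) and TGAATGGA (1.21%), and neither was in a window of any member. TCAATGAA (0.749% of all windows) and TCAATGGA (0.67%) were added after the windows had been read, and were in the window of Spry2 and that of Dusp6 respectively, so that no comparison with the other promoters is drawn from them. The ETS site CCGGAA was in 1 member's window, that of Spry2, and in 14.9% of all windows. The core GGAA alone was not searched, and it also stands in the Dusp6 window. The AP-1 site (5.2% of all windows) and the E-box (7.15%) were in none of the members' windows. The windows of Dusp6 and Spry2 are shown because they hold all matches, which are in capitals, and because Dusp6 showed the largest difference between genotypes. In the Dusp6 window (chr10:99262981-99263280, plus strand) the capitals are TCAATGGA read on the opposite strand, at positions 227 and 252 from the 5′ end. In the Spry2 window (chr14:105896770-105897069, minus strand) they are TCAATGAA on the opposite strand at position 197 and CCGGAA at position 284.
Dusp6: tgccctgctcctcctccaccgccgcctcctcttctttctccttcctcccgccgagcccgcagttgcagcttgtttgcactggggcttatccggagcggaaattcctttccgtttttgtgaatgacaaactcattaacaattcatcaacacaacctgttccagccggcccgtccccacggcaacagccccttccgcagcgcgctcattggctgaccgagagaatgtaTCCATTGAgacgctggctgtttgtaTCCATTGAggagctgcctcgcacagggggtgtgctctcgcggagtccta
Spry2: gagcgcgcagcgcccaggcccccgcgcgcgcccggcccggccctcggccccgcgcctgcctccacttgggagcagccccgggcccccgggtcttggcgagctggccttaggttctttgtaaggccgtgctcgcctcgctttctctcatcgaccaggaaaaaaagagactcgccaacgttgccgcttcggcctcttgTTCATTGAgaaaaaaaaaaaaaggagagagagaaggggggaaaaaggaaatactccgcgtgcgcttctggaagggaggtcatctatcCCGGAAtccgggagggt
These matches describe letters and not binding. The GC content of the windows was 57.0% to 74.0% for Spry1, Spry2, Spred1, Spred2, Dusp6 and Etv5, but 44.0% and 48.7% for the 2 windows of Etv1, beside a median of 52.7% over all promoters.

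In proliferating Kat6a+/+ cells all 10 genes were well expressed, and the spread between embryos was small. Per length, Spry2 was highest at 157 ± 9.55 RPKM, followed by Etv5 (139 ± 14.8), Spry4 (135 ± 12.2), Spry1 (116 ± 12.1) and Dusp6 (95.4 ± 10.95). The ranges over libraries of each neighbouring pair among these 5 overlapped. Etv4 (55.7 ± 3.20), Spred1 (44.7 ± 1.70), Spred2 (41.2 ± 2.23), Etv1 (30.8 ± 3.14) and Dusp4 (20.9 ± 3.26 RPKM) followed, and among the neighbours from Dusp6 down to Dusp4 only Spred1 and Spred2 overlapped. In differentiating Kat6a+/+ cells the order was Spry2 (21.97 ± 2.45 RPKM), Spred1 (17.7 ± 3.06), Etv5 (16.3 ± 6.66), Spred2 (11.7 ± 2.44), Spry1 (10.5 ± 8.21), Etv1 (10.2 ± 2.50), Dusp6 (8.24 ± 3.67), Spry4 (3.49 ± 2.33), Etv4 (2.43 ± 0.788) and Dusp4 (1.54 ± 0.437). Spry4 thus went from the third place to the eighth, and Spred1 from the seventh to the second.

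**Figure D1:**
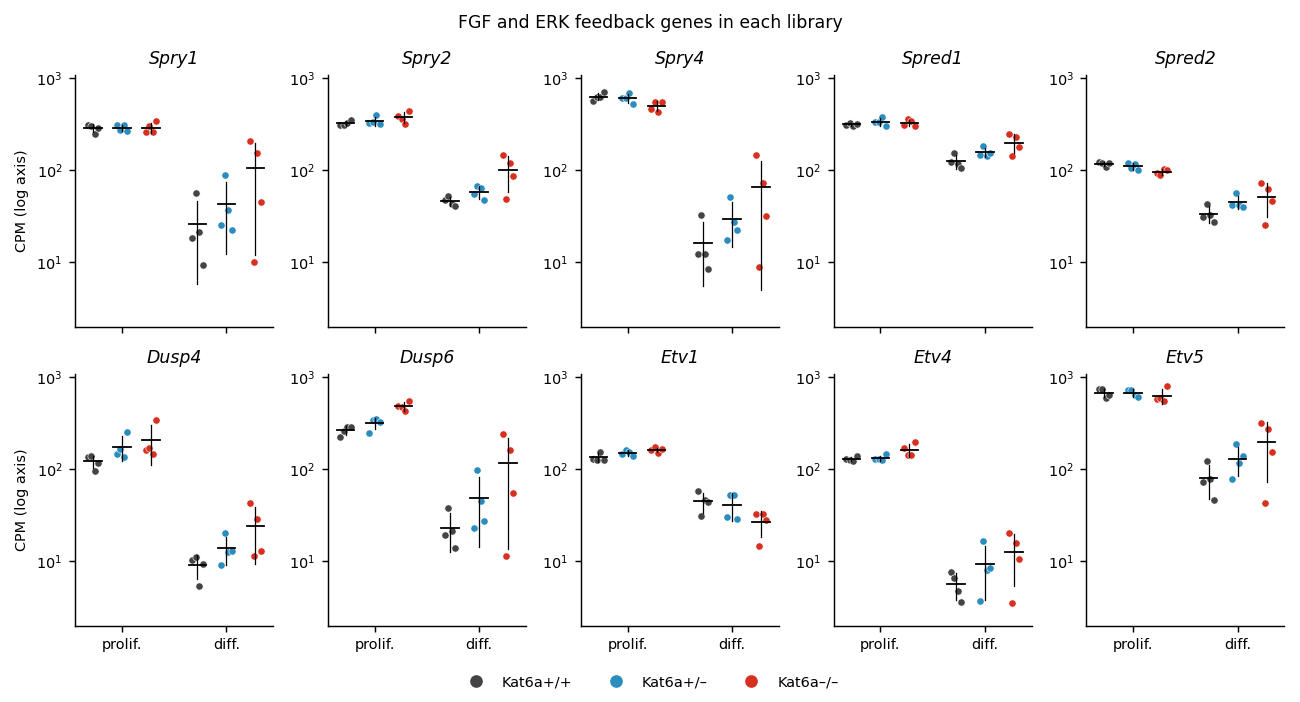
CPM of each FGF and ERK feedback gene (log axis) in the 24 libraries, by medium and genotype. Points are libraries of single embryos, horizontal lines are means and vertical lines are ± 1 SD (n = 4). In every panel all differentiating libraries lie below all proliferating libraries of the same genotype.

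The first comparison asked how the feedback genes differed between growth-factor medium and differentiating medium within each genotype. All 10 members were lower in differentiating cells in each of the 3 genotypes, and no differentiating library reached the level of any proliferating library of its genotype. Over all genes tested, 72.9% were called in Kat6a+/+ cells (36.2% lower, 36.7% higher), 69.7% in Kat6a+/– cells (34.2% lower, 35.4% higher) and 69.2% in Kat6a–/– cells (33.5% lower, 35.8% higher), while 35.2%, 30.2% and 27.9% lay wholly below. The median log2 change of the members was -3.42 in Kat6a+/+, -2.76 in Kat6a+/– and -2.47 in Kat6a–/– cells, where the medians over all genes were 0.017, 0.037 and 0.046. The limma FDR of the 30 changes lay between 4.16e-10 and 0.00286.

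Among the Sprouty genes, whose products restrain receptor tyrosine kinase signalling, Spry4 changed most. In Kat6a+/+ cells Spry4 had 567, 632, 629 and 706 CPM in proliferating and 12.2, 32.5, 12.3 and 8.44 CPM in differentiating libraries. The groups stood far apart, with 2.58% of the proliferating mean left (log2 fold change -5.52, SE 0.60). Spry1 went from 246 to 314 CPM in proliferating libraries to 18.3, 56.0, 21.3 and 9.31 CPM in differentiating ones (log2 -3.80, SE 0.69). Spry2 was the most even Sprouty gene, with 312, 312, 328 and 355 CPM against 47.2, 52.5, 42.5 and 41.2 CPM (log2 -2.85, SE 0.22). The wildtype differentiating library of replicate 2 was the highest of its group in 8 of the 10 members, and that of replicate 4 the lowest in 8.

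The SPRED genes, which encode neurofibromin-binding inhibitors of RAS, kept the largest shares of their proliferating level in Kat6a+/+ cells beside Etv1. Spred1 went from 312, 330, 301 and 319 CPM to 122, 156, 118 and 105 CPM, so that 39.7% remained (log2 -1.35, SE 0.14). Spred2 kept 28.3% (log2 -1.85, SE 0.21). Of the phosphatase genes, Dusp4 fell from 97.2 to 138 CPM to 5.38 to 11.2 CPM in Kat6a+/+ cells (log2 -3.81, SE 0.41). Dusp6 fell from 225, 263, 287 and 292 CPM to 19.3, 37.7, 21.3 and 13.9 CPM (log2 -3.66, SE 0.66).

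The PEA3 genes differed among themselves. In Kat6a+/+ cells Etv4 had 124 to 141 CPM in proliferating and 7.66, 6.66, 4.71 and 3.60 CPM in differentiating libraries (log2 -4.62, SE 0.39). Etv5 kept 11.7% of its level (log2 -3.17, SE 0.44), and Etv1 kept 33.1% (log2 -1.63, SE 0.21). In Kat6a–/– cells the order was another: Etv1 kept 16.4% and Etv5 kept 31.3%. The share that remained was larger in Kat6a–/– than in Kat6a+/+ cells for 9 of the 10 members, from 13.0% against 2.58% for Spry4 to 60.9% against 39.7% for Spred1, and smaller for Etv1. These shares rest on means over libraries that differed widely within the differentiating Kat6a–/– group.

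**Figure D2:**
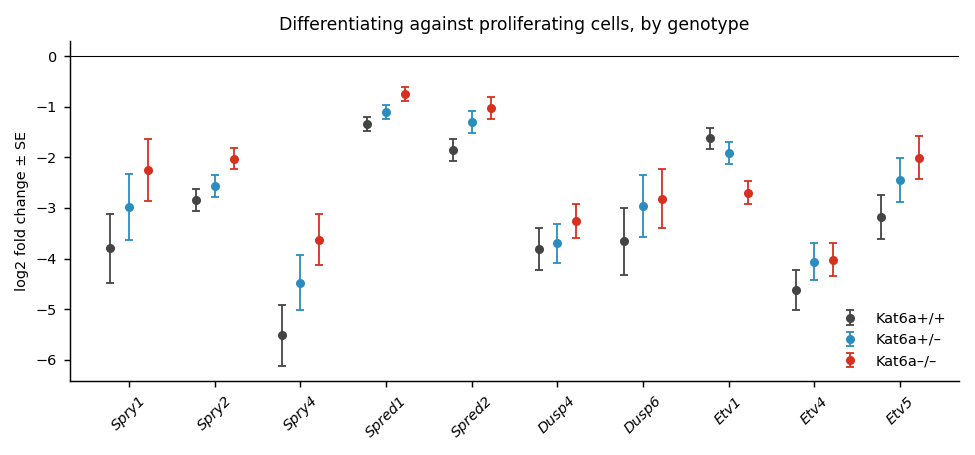
Log2 fold change of each feedback gene in differentiating against proliferating cells, with its standard error, for Kat6a+/+ (grey), Kat6a+/– (blue) and Kat6a–/– (red) cells. Every estimate is below 0, from -5.52 for Spry4 in Kat6a+/+ to -0.75 for Spred1 in Kat6a–/– cells.

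Other genes of the pathway, from lists fixed for this report, moved less evenly with the medium in Kat6a+/+ cells. Of all genes tested, 36.2% were called lower and 36.7% higher in that comparison. Of 12 tested genes that ERK is known to induce, 9 were lower and 1 was higher: the immediate early gene Egr1 changed by -5.56 (SE 0.70), the cyclin gene Ccnd1 by -5.31 (SE 0.71) and the ephrin receptor gene Epha4 by 5.17 (SE 0.44) on the log2 scale. Of 10 other feedback inhibitors, 6 were lower and none was higher, with Dusp2 at -4.71, Dusp9 at -4.45 and Il17rd, which encodes the FGF receptor antagonist SEF, at -1.91. Of 21 genes of the RAS to ERK cascade, 9 were lower and 3 higher. Of 7 FGF receptor and adaptor genes 5 were higher and 1 lower, with Fgfr2 at 4.44 (SE 0.21). Of 8 EGF family genes 4 were higher and 2 lower, with the ligand genes Areg at -5.61 and Hbegf at 2.91, and the receptor gene Erbb3 at 2.57. Of the 3 tested FGF ligand genes, Fgf18 (3.05) and Fgf2 (1.85) were higher.

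The second comparison was between genotypes in proliferating cells. In Kat6a–/– against Kat6a+/+ cells 6 of the 10 members were called, where 30% of all genes were. Dusp6, Dusp4, Etv4 and Etv1 were higher (16.2% of all genes were called higher), and Spry4 and Spred2 were lower (13.8% of all genes). Spry1, Spry2, Spred1 and Etv5 did not pass, with log2 differences of 0.066, 0.20, 0.10 and -0.059. The members' estimates thus lay on both sides of 0, with a median of 0.15, and so did those of the feedback inhibitors among them. Of the 10 members 3 lay wholly above and 2 wholly below the Kat6a+/+ libraries, and over all genes 31.3% did not overlap.

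Dusp6, the cytoplasmic ERK phosphatase gene, showed the largest difference. The Kat6a+/+ libraries had 225, 263, 287 and 292 CPM, the Kat6a+/– libraries 250, 349, 352 and 325 CPM, and the Kat6a–/– libraries 491, 473, 431 and 552 CPM. The Kat6a–/– libraries lay above all others. The log2 difference from Kat6a+/+ was 0.83 (SE 0.10, limma FDR 0.000142). Within the litter that gave both genotypes and most libraries, 1 Kat6a+/+ library had 287 CPM and 2 Kat6a–/– libraries had 491 and 473 CPM, and in the other litter with both genotypes the values were 292 and 431 CPM. Dusp6 and Etv1 kept their call and direction under each alternative fit and with each library left out. Without Kat6a+/+ replicate 1, of doubted label, they and Spry4 were the called members, where 18.7% of all genes were called.

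Etv1 had 131, 127, 156 and 128 CPM in Kat6a+/+, against 163, 174, 152 and 165 CPM in Kat6a–/– libraries, an overlap through 1 library of each group (log2 0.28, SE 0.07, FDR 0.00827 by limma). Etv4, another PEA3 gene, had 124 to 141 CPM and 142 to 199 CPM, with no overlap (log2 0.33, SE 0.10, FDR 0.0212 by limma). Dusp4, the nuclear phosphatase gene, had 136, 138, 97.2 and 118 CPM against 162, 170, 145 and 348 CPM (log2 0.67, SE 0.22, FDR 0.0359 by limma). The last Dusp4 value came from the Kat6a–/– library of replicate 4, which also held the highest Etv5 level (812 CPM) of all proliferating libraries. In the same library the summed level of the dividing-cell markers was 1390 CPM (2289 to 2486 CPM in the other Kat6a–/– and 2418 to 2762 CPM in the Kat6a+/+ libraries), and without it Dusp4 differed by 0.43 (FDR 0.132 by limma).

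Both lower genes encode inhibitors of RAS signalling. Spry4 had 567 to 706 CPM in Kat6a+/+, against 462, 557, 436 and 550 CPM in Kat6a–/– libraries, which did not overlap (log2 -0.33, SE 0.11, FDR 0.0313 by limma). Spred2 had 109 to 123 CPM and 87.9 to 104 CPM, again without overlap (log2 -0.23, SE 0.07, FDR 0.0237 by limma). The calls other than Dusp6 and Etv1 were near the threshold: 2 calls remained with a term for Y-linked reads, 3 with litter as a fixed term, and 2 or 3 when replicate 1, 2 or 4 of Kat6a+/+ or replicate 1 of Kat6a–/– was left out. Calls over all genes also fell, from 30% to 22.3% with Y-linked reads and 15.8% with litter as a fixed term. Without one of those libraries they were 18.7% to 23.6%. The summed astrocyte markers also differed between these groups, with 1413 to 2239 CPM in Kat6a–/– and 772 to 964 CPM in Kat6a+/+ libraries. Most of that sum was Slc1a3 (995 to 1755 and 567 to 740 CPM), while Gfap and Aqp4 stayed at or below 6.46 CPM. Aldh1l1 went the other way, with 2.38 to 6.48 and 5.55 to 26.1 CPM. Of 7 tested genes of the list 5 were called higher and none lower (16.2% and 13.8% of all genes). The part of these markers in the members' differences was not tested.

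**Figure D3:**
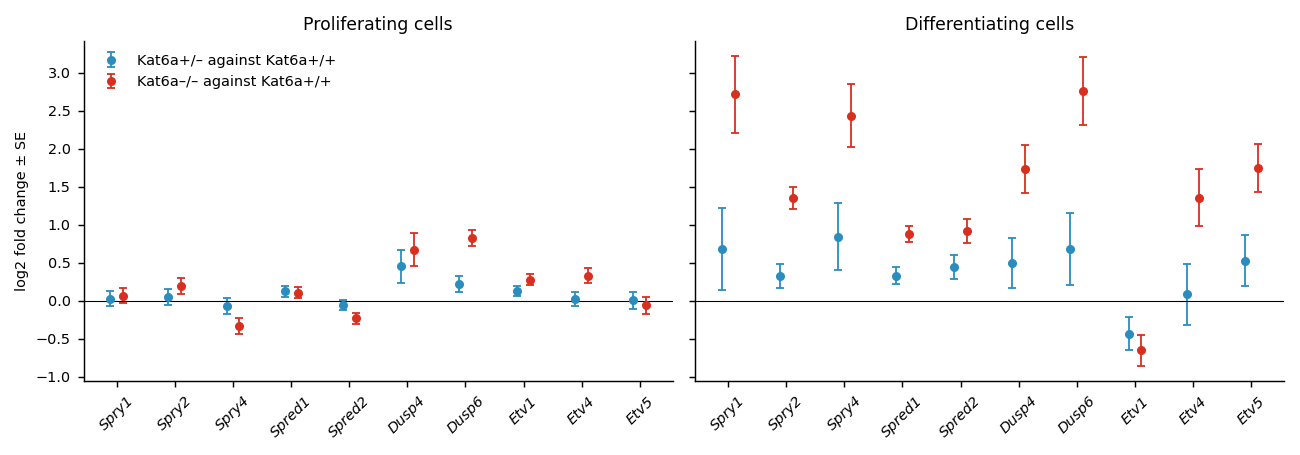
Log2 fold change against Kat6a+/+ cells, with its standard error, for Kat6a+/– (blue) and Kat6a–/– (red) in proliferating (left) and differentiating (right) cells. In proliferating cells the Kat6a–/– estimates run from -0.33 for Spry4 to 0.83 for Dusp6, and in differentiating cells from -0.65 for Etv1 to 2.76 for Dusp6, the latter from a fit with library weights.

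The pathway lists around the members were also mixed in proliferating Kat6a–/– against Kat6a+/+ cells, where 16.2% of all genes were called higher and 13.8% lower. Of 21 genes of the RAS to ERK cascade 6 were lower in Kat6a–/– cells and none higher, with Mapk3, which encodes ERK1, at -0.41, Hras at -0.24 and the Capicua gene Cic at -0.23 on the log2 scale. Of 6 FGF receptor and adaptor genes 1 was higher and 2 were lower, with Fgfr3 at -1.38, Fgfr2 at 0.86 and the adaptor gene Frs3 at -0.56. Of 10 other feedback inhibitors 2 were higher, Lrig1 (0.43) and Spred3 (0.43), and Dusp9 was lower (-1.42). Of 7 EGF family genes the ligand gene Tgfa was higher (2.14) and Areg lower (-0.86). Of 12 ERK-induced genes Epha4 was higher (1.46) and Phlda1 lower (-0.86), and the only FGF ligand gene tested, Fgf1, had 0.38 and did not pass.

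In differentiating cells 9 of the 10 members were called higher and Etv1 lower in Kat6a–/– against Kat6a+/+ cells in the weighted fit. Over all genes 54.4% were called, 26.7% higher and 27.7% lower. The weighted fit follows the steps that the study's methods state, but it called more genes than the study reports for this comparison. The reason for this gap was not tested. The median of the members was 1.55 and that over all genes -0.016 on the log2 scale. The call did not rest on all libraries alike. Of the weight of the Kat6a–/– group, the library of replicate 3 held 69.0% and that of replicate 2 held 4.22%, and Dusp4 was the only member whose Kat6a–/– libraries all lay above the Kat6a+/+ libraries (26.8% of all genes did not overlap). Without the weights 3 members were called, Spry2, Spred1 and Dusp4, where 23.2% of all genes were. With replicate 1 or replicate 3 of Kat6a–/– left out, 0 members were called, and 9.01% and 6.99% of all genes were. Without Kat6a+/+ replicate 1, of doubted label, 9 members were called higher and none lower, and 43.9% of all genes were called.

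The 4 Kat6a–/– libraries differed from each other in the same order for every member. Replicate 1 was the highest and replicate 2 the lowest in all 10. The geometric mean of the members was 106, 18.5, 81.8 and 45.1 CPM in replicates 1 to 4, while the Kat6a+/+ libraries had 19.7 to 38.4 CPM and the Kat6a+/– libraries 27.9 to 63.5 CPM. Replicate 2 was thus below every Kat6a+/+ library, and the other replicates were above them all. Replicates 1 and 2 came from the same litter. When replicate 2 and the weights were both left out, a choice made after the values had been seen, 9 members were called higher. Of all genes, 15.8% were called higher in that fit.

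Dusp6 and Spry1 had the widest spread. Dusp6 had 19.3, 37.7, 21.3 and 13.9 CPM in Kat6a+/+, against 240, 11.4, 162 and 54.9 CPM in Kat6a–/– libraries (weighted log2 difference 2.76, SE 0.45; 1.70 and FDR 0.151 by limma without weights). Spry1 had 9.31 to 56.0 CPM and 210, 10.1, 156 and 45.7 CPM (2.72, SE 0.50; 1.55 and FDR 0.223 by limma without weights). Spry4 had 8.44 to 32.5 CPM and 146, 8.91, 73.6 and 32.3 CPM (2.43, SE 0.42). In each of these genes replicate 2 lay within or below the wildtype range.

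The calls of Spry2 and Spred1 held under all 11 alternative fits on the differentiating libraries, and that of Dusp4 under 10, being lost in voom with a litter block (FDR 0.0978), but all 3 calls were lost from the weighted fit without replicate 1 or without replicate 3 of Kat6a–/–. Spry2 had 47.2, 52.5, 42.5 and 41.2 CPM in Kat6a+/+, against 145, 48.8, 120 and 86.6 CPM in Kat6a–/– libraries, with a log2 difference of 1.36 (SE 0.14) with weights and 1.02 (FDR 0.0203 by limma) without. Spred1 had 105 to 156 CPM and 249, 143, 229 and 181 CPM, and differed by 0.87 (SE 0.10) with and 0.66 (FDR 0.0189 by limma) without weights. Dusp4 had 5.38 to 11.2 CPM and 42.6, 11.6, 29.1 and 12.9 CPM, and differed by 1.74 (SE 0.31) with and 1.24 (FDR 0.0493 by limma) without weights.

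Of the remaining members, Etv5 had 46.0 to 125 CPM in Kat6a+/+, against 322, 43.0, 277 and 154 CPM in Kat6a–/– libraries (1.75, SE 0.31). Spred2 (0.92, SE 0.15) and Etv4 (1.36, SE 0.37) had the same order of libraries. Etv1 went the other way, with 57.6, 30.9, 46.7 and 44.2 CPM against 32.5, 14.7, 32.4 and 27.9 CPM (-0.65, SE 0.20; -0.77 and FDR 0.0852 by limma without weights). All 4 Etv1 values of Kat6a–/– lay below the 3 highest of the Kat6a+/+ values.

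**Figure D4:**
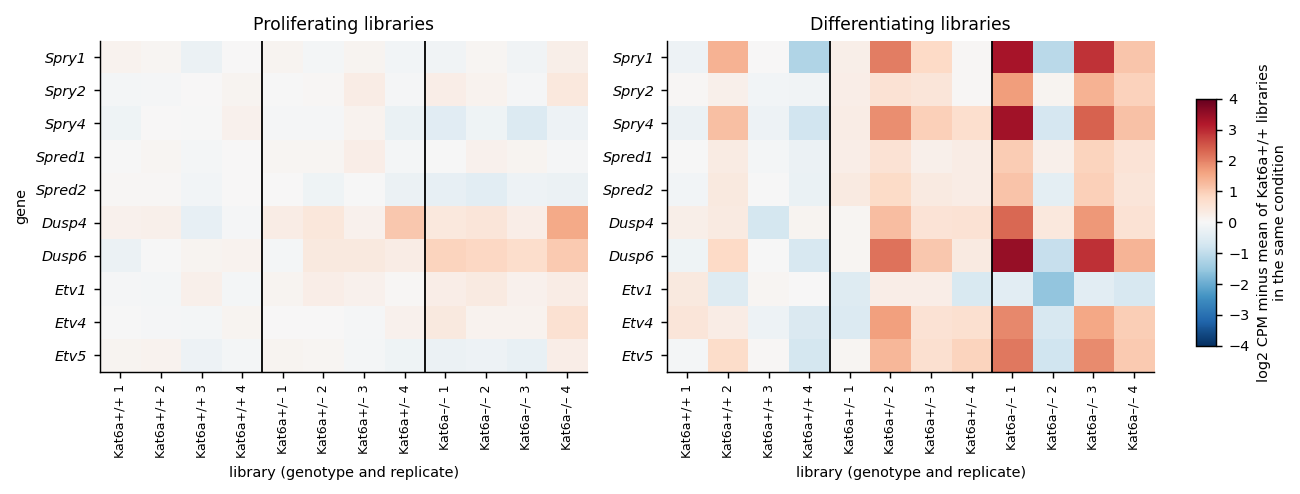
Log2 CPM of each feedback gene in each library minus the mean of the Kat6a+/+ libraries in the same medium, for proliferating (left) and differentiating (right) cells, with columns ordered by genotype and replicate. In the differentiating Kat6a–/– libraries the columns of replicates 1 and 3 are red for all genes but Etv1, and that of replicate 2 is pale or blue for most.

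Markers of other cells and states also differed between these libraries. Over the Kat6a–/– replicates the mesenchymal and meningeal sum had the same order as the members, and the astrocyte and neuronal sums had the reverse order. The dividing-cell, stem and progenitor, and oligodendrocyte lineage sums had neither order. The summed mesenchymal and meningeal markers were 274, 42.9, 257 and 177 CPM in replicates 1 to 4 of differentiating Kat6a–/– cells, 32.4 to 65.2 CPM in Kat6a+/+ and 53.2 to 133 CPM in Kat6a+/– libraries. Most of that sum was Col1a1 (9.12 to 174 CPM in Kat6a–/–, 2.07 to 16.1 CPM in Kat6a+/+) and Foxc1 (22.7 to 81.8 and 20.5 to 39.2 CPM), while Pdgfrb had 10.3 to 28.8 and 8.22 to 14.9 CPM and Col1a2 0.524 to 16.8 and 0.331 to 1.18 CPM. Lum was at 0 in all 4 Kat6a–/– libraries, and Col3a1, Dcn and Twist1 stayed at or below 1.36 CPM. Of the 8 listed genes 4 could be tested, and 4 were called higher by limma in the weighted fit. The summed astrocyte markers were 6974 CPM in replicate 2 of Kat6a–/–, 1872 to 3533 CPM in its other libraries and 2237 to 3202 CPM in Kat6a+/+. The dividing-cell markers summed to 88.1 to 224 CPM in Kat6a–/– and 563 to 937 CPM in Kat6a+/+ libraries. The neuronal sums overlapped (454 to 761 CPM in Kat6a–/– and 516 to 687 CPM in Kat6a+/+). Most of that sum was Map2 (387 to 712 and 433 to 487 CPM), so it mainly followed 1 gene. Map2 was higher still in proliferating Kat6a+/+ libraries (789 to 1023 CPM), so the sum does not stand for neurons alone. Of the same list Dcx had 0.952 to 7.76 against 14.8 to 69.7 CPM and Elavl4 0.612 to 3.38 against 8.97 to 31.6 CPM. Stmn2 went the other way, with 0.953 to 3.89 against 0 to 0.217 CPM, and Tubb3, Map2 and Rbfox3 overlapped. Of these 6 genes 1 was called higher and 3 lower by limma in the weighted fit (26.7% and 27.7% of all genes). The stem and progenitor sum was 8180 to 11688 CPM in Kat6a–/– and 5997 to 7625 CPM in Kat6a+/+ libraries, and the oligodendrocyte lineage sum 689 to 1215 and 1186 to 1402 CPM. Most of the stem and progenitor sum was Vim (6334 to 9182 and 4088 to 5343 CPM). Of 7 tested stem and progenitor genes 2 were called higher and 4 lower, and of 6 oligodendrocyte lineage genes 1 and 4. The part of these differences in the members' values was not tested.

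**Figure D5:**
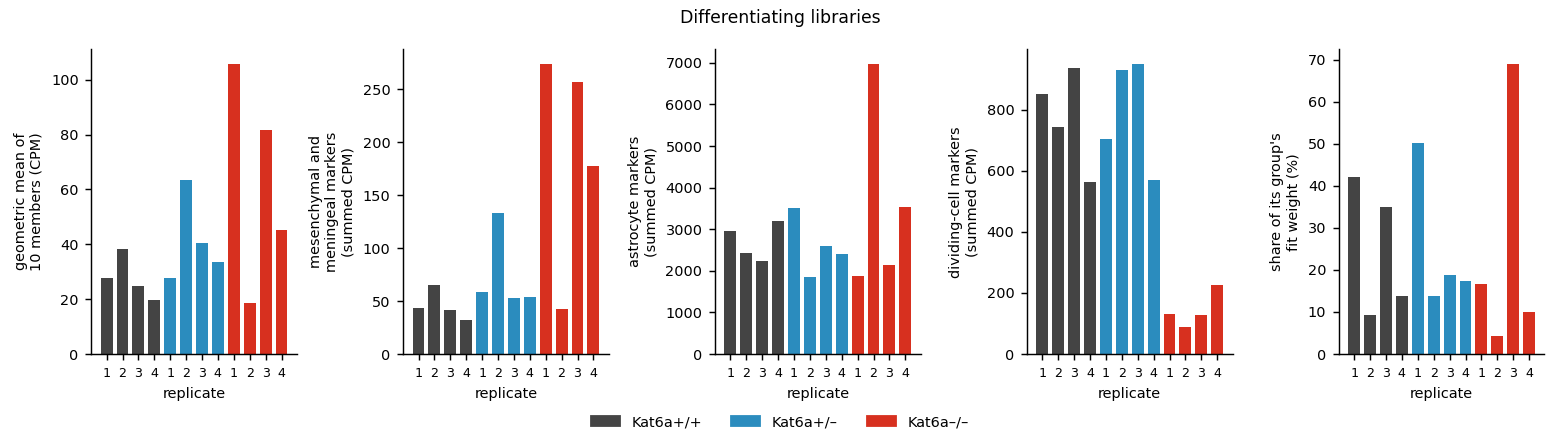
Geometric mean CPM of the 10 feedback genes, summed CPM of 3 marker lists, and the share of its group's fit weight (percent), for each of the 12 differentiating libraries, coloured by genotype. The Kat6a–/– library of replicate 2 has the lowest member mean (18.5 CPM), the highest astrocyte sum (6974 CPM) and 4.22% of its group's weight.

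The pathway lists differed among themselves in differentiating Kat6a–/– cells in the weighted fit, in which 26.7% of all genes were called higher and 27.7% lower. Of 8 other feedback inhibitors 7 were higher and none lower, with Dusp1 at 1.70, Dusp5 at 1.31 and Errfi1, which encodes an inhibitor of the EGF receptor, at 1.07 on the log2 scale. Of 11 ERK-induced genes 6 were higher and none lower, with Ccnd1 at 3.34, Epha2 at 2.76 and Ier3 at 2.39. Of the 4 FGF ligand genes tested, Fgf18 (2.69), Fgf1 (1.82) and Fgf7 (1.23) were higher. Of 7 FGF receptor and adaptor genes 2 were higher, Fgfrl1 (0.90) and Fgfr1 (0.75), and 2 were lower, among them Fgfr3 (-0.72). Of 7 EGF family genes 3 were higher, with Tgfa at 2.13 and Hbegf at 2.02, and Erbb4 was lower (-0.95). Of 21 cascade genes 7 were higher and 3 lower, with the adaptor gene Shc1 at 1.58, Hras at 0.87 and Mapk3 at 0.64. Without the library weights the other feedback inhibitors had 2 higher, the ERK-induced genes 4 and the cascade 2 higher and 0 lower. Of all genes, 10.8% were called higher in that fit. With replicate 1 or replicate 3 of Kat6a–/– left out, no list had more than 1 called gene, and 9.01% and 6.99% of all genes were called.

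In Kat6a+/– against Kat6a+/+ cells 0 members were called in either medium by limma, and 0 by edgeR or DESeq2. By limma 0% of all genes were called in both media, with 912 genes at an unadjusted p under 0.05 in proliferating and 1926 in differentiating cells, and DESeq2 called 28 and 8 genes. Among the members, 1 had an unadjusted p under 0.05 in proliferating cells (Dusp6, log2 0.23, SE 0.10) and 2 in differentiating cells (Spred1, 0.33, SE 0.11, and Spred2, 0.45, SE 0.16). The estimates ran from -0.065 for Spry4 to 0.45 for Dusp4 in proliferating and from -0.43 for Etv1 to 0.85 for Spry4 in differentiating cells, where 9 of 10 were above 0. All 10 members overlapped between these groups in both media, while 4.55% and 2.77% of all genes did not.

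Between Kat6a–/– and Kat6a+/– cells in proliferating medium, 2 members were higher (14.8% of all genes were called, 8.47% higher and 6.3% lower). They were Dusp6 (0.60, SE 0.10, FDR 0.00260 by limma), whose Kat6a–/– libraries lay above all Kat6a+/– libraries, and Etv4 (0.31, SE 0.09, FDR 0.0424 by limma), whose call was lost under 7 of 10 alternatives, edgeR and DESeq2 among them. In differentiating cells 8 members were called higher (37.5% of all genes were called, 19.1% higher and 18.5% lower) and Spred2 (0.47) and Etv1 (-0.22) did not pass. No member was free of overlap between these groups, where 16.2% of all genes were. By edgeR or without the library weights 0 members were called, and 12.4% and 12.1% of all genes were. In the weighted limma fit 9 members, and 6391 of 13339 genes, had an unadjusted p under 0.05. Without Kat6a–/– replicate 3 the estimates of Spry1 and Etv5, both called with it, were -0.041 and -0.20.

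The last comparison tested whether the change with the medium differed between genotypes. For Kat6a–/– against Kat6a+/+ cells it differed in 2 of the 10 members, with 13.9% of all genes called (6.36% above 0 and 7.58% below 0). Etv1 fell further in Kat6a–/– cells (difference of log2 changes -1.07, SE 0.31, FDR 0.0233 by limma), and this call held under each alternative fit of all libraries and with each single library left out. Spred1 fell less in Kat6a–/– cells (0.60, SE 0.19, FDR 0.0427 by limma), a call lost when the library totals replaced TMM and with 18 of the 24 libraries when left out in turn. Without both Kat6a+/+ libraries of doubted label, an alternative chosen after seeing the data, 0 members were called, with Etv1 at -0.96 (FDR 0.0864) and Spred1 at 0.57 (FDR 0.129) by limma. The other 8 members had differences from 0.56 for Dusp4 to 1.89 for Spry4, all above 0, and did not pass. With replicate 2 of differentiating Kat6a–/– cells left out, 9 members were called, Etv1 lower and 8 higher, whereas edgeR called 5 and DESeq2 6 on all libraries. For Kat6a+/– cells 0 members were called by limma, edgeR or DESeq2, 0% of all genes were called by limma, no member and 412 genes had an unadjusted p under 0.05, and the members' estimates ran from -0.29 for Etv1 to 1.04 for Spry4.

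How the members varied together differed between the media. Over the 12 differentiating libraries the median Pearson correlation of log2 CPM over the 45 pairs of members was 0.892, and 36 pairs were above 0.8. Over the 36 pairs without Etv1 the lowest was 0.810, so that all lower pairs held Etv1. Over the 12 proliferating libraries the median was 0.212, with a range from -0.831 to 0.769 and no pair above 0.8. The libraries share genotype, litter and scaling, and these correlations are a description. Beyond the members, the gene most like Spred1 in differentiating libraries was the fibronectin gene Fn1 (r = 0.996, n = 12), that most like Spry1 was the perlecan gene Hspg2 (0.986), and that most like Etv5 was Igfbp2 (0.984), which encodes a binding protein of insulin-like growth factors. Spry4 was most like Ehd4 (0.984), Dusp6 like Cdr2 (0.990), Spry2 like Igfbp4 (0.977), Dusp4 like 1700017B05Rik (0.963), Etv4 like Prrc1 (0.955) and Etv1 like the semaphorin gene Sema4c (0.966). In proliferating libraries the most alike genes were others: Itpkb, which encodes an inositol trisphosphate kinase, for Dusp6 (0.978), Gdpd2 for Etv4 (0.972), Noct for Spred2 (0.971), Fmn1 for Dusp4 (0.958), Sgpp1 for Etv1 (0.957), Fbxl20 for Spry1 (0.937), Dnpep for Spry4 (0.923), Nedd4l for Etv5 (0.918), P3h4 for Spry2 (0.906) and Zfp953 for Spred1 (0.887).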

How the data were processed

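Per the labels and the study's methods, the authors made stranded poly(A) RNA libraries from NSPCs, aligned reads to mm39 with Rsubread and deposited raw counts per gene from featureCounts with a dated strict RefSeq annotation. The versions of the aligner and counter run on these libraries, and the strand setting, were not given in the sources used here. Each library's table was joined on its gene identifier, and 21030 of 26411 genes were protein-coding by RefSeq, while 52 had no biotype and were left out. Y-linked genes and Xist were not tested. Genes passing filterByExpr in edgeR 4.0.16 were scaled by TMM and fitted with limma 3.58.1 in R 4.3.3, as the study's methods state. Proliferating libraries (12276 genes) were fitted with voom, blocked on litter (estimated correlation 0.287). For differentiating libraries (13339 genes) limma-trend was run on log2 CPM (prior count 2), with library quality weights. The study states no fit across media, so the 24 libraries (13590 genes) were fitted likewise with voom and the litter block (correlation 0.00365), with genotype, medium and their interaction. Robust empirical Bayes was used throughout, and genes with a Benjamini-Hochberg FDR under 0.05 over all genes tested were called. A printed error of a log2 difference is limma's standard error, and p-values measure the spread between cultures of single embryos.

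All 10 members were named in every comparison, with at most the 3 called genes of largest change from each pathway list, the most correlated gene for each member and medium (log2 of CPM + 0.5), and Kat6a. The most correlated gene of Spred2 in differentiating cells is not reported here. The members, the lists and the comparisons were chosen with earlier results of these data known. Cell markers were read as sums of CPM over fixed lists. Promoter windows and gene names came from RefSeq GRCm38.p6 and gene positions from GENCODE on GRCm39. Alternatives were edgeR's quasi-likelihood test, DESeq2 1.42.0, other scalings, no filter, other terms for litter, embryo, Y-linked reads or replicate number, no weights, the fit of the other medium, and leaving out each library. The fits were tested on simulated data. The closest pair of replicates differed by 5.55 times the chi-square that counting error alone gives per degree of freedom, so no library counted as a copy of another.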

Additional observations from a re-analysis of the deposited data

Results flagged for a closer look

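Of 60 tests for a library far from the others of its group of 4 (the CPM of each member in each group), 6 stood out, where chance gives about 1 in 20. They were Spry4 in differentiating Kat6a+/+ replicate 2 (32.5 CPM), Spred2 in differentiating Kat6a+/– replicate 2 (56.5 CPM), Spred2 in proliferating Kat6a+/+ replicate 3 (109 CPM), Etv1 in the same library (156 CPM), and Dusp4 (348 CPM) and Etv5 (812 CPM) in proliferating Kat6a–/– replicate 4. The Kat6a–/– replicate 2 of differentiating cells was not among them, although it was the lowest of its group in all 10 members, because the other values of that group are themselves far apart.

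The change with the medium differed between Kat6a–/– and Kat6a+/+ cells, by the interaction term of the limma fit, for Etv1 (-1.07 on the log2 scale, FDR 0.0233) and Spred1 (0.60, FDR 0.0427). Both calls were lost without the Kat6a+/+ libraries of replicate 1, whose shared embryo label is in doubt.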

How the results depend on the processing

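The fall of all 10 members with differentiating medium was called in each genotype under each alternative and with each library left out (10 of 10 throughout), and 0 members were called for Kat6a+/– against Kat6a+/+ or its interaction under any of them. The calls between Kat6a–/– and the other genotypes varied. In proliferating cells the 6 calls against Kat6a+/+ became 3 with litter as a fixed term and 2 with a term for Y-linked reads, and 2 to 6 over the left-out libraries. Over all genes the 30% called became 15.8% and 22.3% in these fits. The 2 calls against Kat6a+/– became 1 with edgeR, DESeq2, library totals, no filter, Y-linked reads or no litter block, and 1 to 4 over the left-out libraries. In those fits 7.75% (edgeR) to 15.2% (library totals) of all genes were called, against 14.8%. In differentiating cells the 10 calls against Kat6a+/+ became 4 with edgeR, 6 with DESeq2, 3 with litter as a fixed term, 3 without weights and 2 with voom and a litter block, and 0 to 10 over the left-out libraries, with 0 in the absence of Kat6a–/– replicate 1 or 3. Over all genes the 54.4% called became 24.3%, 30.6%, 13.4%, 23.2% and 21% in the same order of fits. Without replicate 1 or 3 the share was 9.01% or 6.99%. The 8 calls against Kat6a+/– became 0 with edgeR, litter as a fixed term, no weights or voom, 1 with DESeq2 or Y-linked reads, 2 with no filter, 1 when weights and Kat6a–/– replicate 2 were both left out (chosen after seeing the data), and 0 to 9 over the left-out libraries. Over all genes the 37.5% called became 12.4% with edgeR, 2.89% with litter as a fixed term, 12.1% without weights and 10.5% with voom. It became 19.6% with DESeq2, 12% with Y-linked reads, 17.6% with no filter and 18.6% without weights and replicate 2. The 2 interaction calls for Kat6a–/– became 5 with edgeR, 6 with DESeq2 and 1 with library totals, 0 when both Kat6a+/+ libraries of doubted embryo label were left out (chosen after seeing the data), and 1 to 9 over the left-out libraries. Over all genes the 13.9% called became 16.4% with edgeR, 20.4% with DESeq2 and 17.7% with library totals. The cause was not tested for any of these.

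Estimates that changed sign were near 0 in the alternatives. In proliferating cells against Kat6a+/+ these were, for Kat6a–/–, Spry1 (-0.013 with Y-linked reads, -0.077 with limma-trend). For Kat6a+/– they were Spry1 (-0.032 and -0.0072), Spry2 (-0.0073 with Y-linked reads), Spry4 (0.037 with limma-trend), Etv4 (-0.038 with litter as a fixed term, -0.012 with Y-linked reads) and Etv5 (-0.0087 with Y-linked reads, -0.00086 with limma-trend). For Kat6a–/– against Kat6a+/– they were Spry1 (-0.070) and Spred1 (1.2e-06), both with limma-trend. In differentiating cells Etv1 in Kat6a+/– had 0.0041 with Y-linked reads. Over left-out libraries, signs changed for Spry1 (-0.031 to 0.14) and Etv5 (-0.20 to 0.030) in proliferating Kat6a–/– against Kat6a+/+, for Spry1 (-0.066 to 0.070), Spry2 (-0.032 to 0.11), Spry4 (-0.13 to 0.0076), Etv4 (-0.00026 to 0.069) and Etv5 (-0.070 to 0.076) in Kat6a+/–, and for Spry1 (-0.061 to 0.10), Spred1 (-0.061 to 0.037) and Dusp4 (-0.066 to 0.36) between the mutants. In differentiating cells they changed for Etv4 in Kat6a+/– (-0.31 to 0.83), for Spry1 (-0.041 to 2.32), Spred2 (-0.22 to 0.53) and Etv5 (-0.20 to 1.46) between the mutants, and for the interaction of Dusp4 in Kat6a+/– (-0.13 to 0.31). Of these, Spry1 and Etv5 between the differentiating mutants had been called, and their lowest values came without Kat6a–/– replicate 3.

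Replicate numbers are shared between groups, but same-numbered libraries did not deviate together: in 0 of 9 pairs of groups were all 4 correlations above 0.1. With the replicate block, Kat6a–/– against Kat6a+/+ cells gave 5 member calls in proliferating and 10 in differentiating medium, with 2 and 8 against Kat6a+/–, and 2 for the interaction. At 63 or more counts per member and library, counting error is small beside the spread between embryos.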
